A study of Mus musculus with 16 samples.

Results

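The genes described here are the NF-kB subunits NFKB1, NFKB2, REL, RELA and RELB and a set of regulators that hold NF-kB back or feed back on it, namely NFKBIA, NFKBIE, NFKBIZ, TNFAIP3 and BIRC3. They were chosen by name, and all 10 were found among the 18132 gene symbols measured. Expression was measured on 16 Illumina Mouse 8 arrays of primary fibroblasts grown from inguinal mammary glands of female 129S6 mice aged 8 to 10 weeks. The mice were MEKK1+/+ or MEKK1-/-, and MEKK1 is a kinase encoded by MAP3K1 that acts upstream of MAP kinase and NF-kB signaling. Cells of each genotype were kept in growth medium with serum (untreated) or exposed for 8 h to the same medium taken from cultures of MDA-MB-231, a human breast cancer line (treated), with 4 replicates in each of the 4 groups. The cultures came from fewer mice of each genotype than there were arrays and the mouse behind each culture is not named, so errors and p values below describe the spread between cultures.

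NF-kB is a family of dimeric transcription factors that link receptors for cytokines and microbial products to inflammatory gene expression. In resting cells the inhibitors of the IkB family hold the dimers in the cytoplasm. Receptor signaling activates the IkB kinase complex, the IkB proteins are degraded, and the dimers enter the nucleus and bind kB sites. Several of their targets encode the pathway's own parts, among them the inhibitors, the precursor subunits and the ubiquitin-editing enzyme TNFAIP3 (A20), so the transcripts of these genes are commonly read as a record of recent NF-kB activity. In fibroblasts the pathway is known for driving chemokines, adhesion molecules and matrix proteases.

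Promoter sequences are shown first because NF-kB acts on its own genes through kB sites. They are RefSeq promoters of GRCm38.p6, from 250 bases before to 50 after a start site, and were searched on both strands for the kB consensus. Promoters were listed for 7 of the 10 genes, NFKB2, REL, RELA, NFKBIA, NFKBIE, TNFAIP3 and BIRC3. At least 1 match was found for 5 of these 7, against 9.55% of all 27018 genes with a listed promoter, and none was found in the windows of RELA and BIRC3. Capitals mark the matched bases in the stretches below, each written 5′ to 3′ on the strand of its gene.
NFKBIA, chr12:55492652-55492691, minus strand: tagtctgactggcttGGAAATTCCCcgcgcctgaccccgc
NFKB2, chr19:46304683-46304736, plus strand: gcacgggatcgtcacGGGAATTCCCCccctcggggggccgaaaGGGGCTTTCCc
NFKB2, chr19:46305690-46305729, plus strand: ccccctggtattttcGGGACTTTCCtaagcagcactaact
NFKBIE, chr17:45555579-45555618, plus strand: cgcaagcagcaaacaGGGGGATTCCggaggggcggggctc
REL, chr11:23771036-23771076, minus strand: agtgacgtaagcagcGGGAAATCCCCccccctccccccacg
The NFKBIA match began 29 bases before the start site, and that of NFKBIE began 106 bases before it. NFKB2 had 3 listed start sites, each with at least 1 match, and the first of its stretches holds overlapping matches that began 39 and 38 bases before the first start site. TNFAIP3 had matches 125 and 12 bases before the first of its start sites, as the map of matches by distance shows. A match describes the letters in these windows and is no evidence that a factor was bound there.

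**Figure D1:**
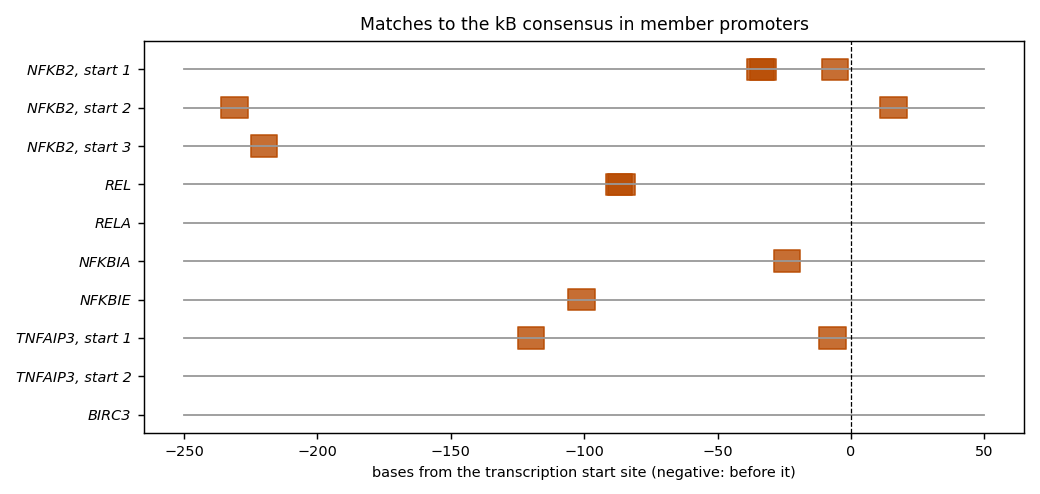
Matches to the kB consensus in the listed promoters of NFKB2, REL, RELA, NFKBIA, NFKBIE, TNFAIP3 and BIRC3. Each gray line is a promoter from 250 bases before to 50 bases after a start site (dashed line), and each bar is a match drawn over the 10 bases of the consensus. NFKB2 has matches at all 3 of its start sites, while RELA and BIRC3 have none in these windows.

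Values below are normalized log2 intensities. A gene was counted as above background on an array where it exceeded the 99th percentile of 1075 olfactory receptor genes, a level between 7.20 and 7.34. NFKB1, NFKB2, RELA, RELB, NFKBIA, NFKBIZ and TNFAIP3, 7 of the 10 genes, were above it on every array. NFKBIE was above it on 12 of the 16 arrays, BIRC3 on 3 and REL on 0, so the values of REL describe background signal and those of BIRC3 lie close to it. Levels of different genes come from different probes and were not compared with each other.

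The targeted gene was used to check the labels. In untreated MEKK1+/+ cells MAP3K1 read 7.95, 7.77, 7.60 and 7.51 in replicates 1 to 4, beside 8.06, 8.31, 8.17 and 8.41 on the untreated arrays labelled MEKK1-/-. On treated arrays it read 7.42, 7.71, 8.18 and 7.64 for MEKK1+/+, beside 8.08, 7.79, 8.29 and 8.13 for the label MEKK1-/-. The MAP3K1 signal was therefore not lower on the arrays labelled MEKK1-/-. On untreated arrays it was higher by 0.53 on the log2 scale (limma adjusted p = 0.465), and the labels did not overlap, as for 4.61% of all genes. On treated arrays it was higher by 0.33 (limma adjusted p = 0.605), and the labels overlapped. Whether its probe lies in the altered part of the gene is not given in the sources used here. Every genotype direction below rests on these labels.

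All 12 fibroblast markers were measured, and 11 were above background on every array. Macrophage markers were also detected. Of 20 such markers 10 were above background on every array and 3, PTPRC, ITGAM and FCER1G, on none. Their summed log2 level ran from 15.03 to 16.39 on untreated MEKK1+/+ arrays, from 14.84 to 16.30 on treated ones, from 13.78 to 16.08 on untreated MEKK1-/- arrays and from 13.83 to 15.86 on treated ones. Between genotypes 17 of the 20 were lower in untreated MEKK1-/- cells and 18 of 20 in treated cells (medians -0.78 and -0.78). In bulk samples, fewer cells of a type and less RNA per cell cannot be told apart. Epithelial markers summed to 13.51 and 13.36 on the MEKK1-/- arrays numbered 1 and to at most 10.93 on every other array. Of 7 endothelial markers 0 were above background on every array and 2, KDR and TIE1, on none. They summed to 10.54 and 10.59 on the MEKK1-/- arrays numbered 1 and to at most 10.12 on every other array. Lymphocyte and fat cell markers were mostly at background.

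The arrays numbered 2 stood apart. Untreated MEKK1+/+ replicate 2 was the lowest of its group in NFKB1, NFKB2, RELA, RELB, NFKBIA, NFKBIE, NFKBIZ and TNFAIP3, and also had the lowest summed macrophage markers of its group (15.03, against 15.95 to 16.39). Untreated MEKK1-/- replicate 2 was the highest of its group in the same 8 genes and had the highest macrophage markers (16.08, against 13.78 to 15.10). The treated arrays numbered 2 lay on the same sides in macrophage markers, at 14.84 in MEKK1+/+ (against 15.94 to 16.30) and 15.86 in MEKK1-/- cells (against 13.83 to 15.28). The part of macrophage RNA in these values was not tested, nor was an exchange of the cultures or arrays numbered 2 between genotypes. MAP3K1 on the untreated arrays numbered 2 lay within the range of the other untreated arrays of the same label and outside that of the other label. Treated MEKK1-/- replicate 2 had the lowest MAP3K1 of its group. The limma counts of the members below are also given without the 4 arrays numbered 2, an alternative chosen after the members' own values had been seen.

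**Figure D2:**
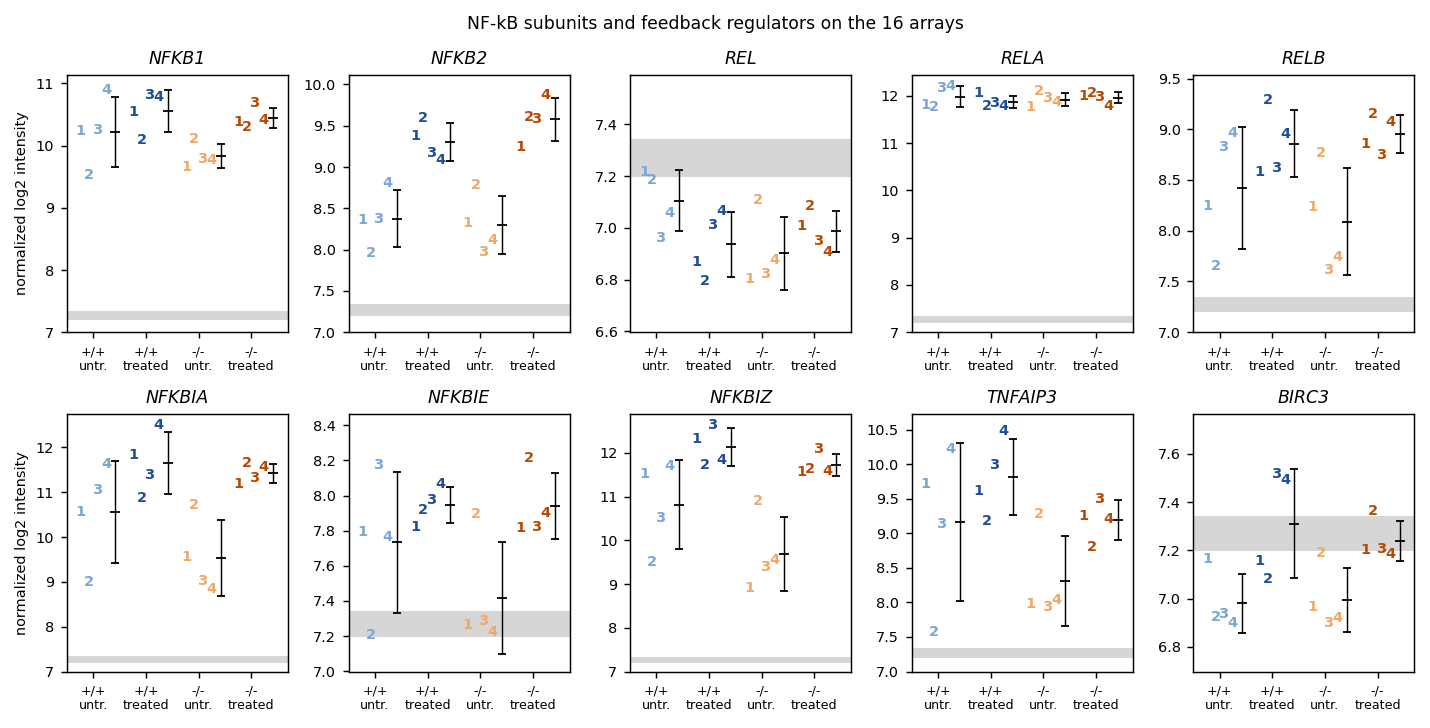
Normalized log2 intensity of each gene on the 16 arrays, with the digit giving the replicate number and the bar to its right the mean and SD of the 4 replicates. The gray band is the range of the background level over arrays, 7.20 to 7.34. NFKB2 separates untreated from treated arrays in both genotypes, RELA stays between 11.75 and 12.20 on all 16 arrays, and the digit 2 lies lowest among untreated MEKK1+/+ arrays and highest among untreated MEKK1-/- arrays in 8 panels.

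The first question was which of these genes responded to tumor cell-conditioned medium. NFKB2 rose in both genotypes, 1.91-fold in MEKK1+/+ and 2.43-fold in MEKK1-/- cells. NFKBIZ and NFKBIA also rose in MEKK1-/- cells, 4.07-fold and 3.71-fold. In MEKK1+/+ cells they were 2.49-fold and 2.12-fold higher on average without passing the test. RELA, the main activating subunit, passed in neither genotype. Counts of calls use limma's p values, adjusted by Benjamini-Hochberg over the whole table, and a threshold of 0.05. In MEKK1+/+ cells 1 of the 10 genes passed, against 5.01% of all genes in either direction and 2.27% called higher. In MEKK1-/- cells 3 of 10 passed, all higher, against 4.69% of all genes and 2.18% called higher. Of the 10 genes 8 were higher on average in MEKK1+/+ cells and all 10 in MEKK1-/- cells, with medians of 0.39 and 0.74 on the log2 scale beside medians of -0.002 and -0.004 over all genes.

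Among the subunits, NFKB2 encodes the p100 precursor of p52, which acts in the non-canonical branch of the pathway. On untreated MEKK1+/+ arrays it read 8.36, 7.96, 8.37 and 8.80 in replicates 1 to 4, and when treated 9.37, 9.60, 9.16 and 9.08. In MEKK1-/- cells it read 8.33, 8.78, 7.97 and 8.11 untreated and 9.25, 9.60, 9.59 and 9.87 when treated. In each genotype every treated array was above every untreated array. The log2 difference was 0.93 (SE 0.19, limma adjusted p = 0.0113) in MEKK1+/+ cells and 1.28 (SE 0.19, limma adjusted p = 0.00152) in MEKK1-/- cells, and the 2-sided exact permutation p was 0.0286 in both, the smallest that 4 arrays against 4 allow.

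NFKB1 encodes the p105 precursor of p50, the usual partner of RELA. It read 10.23, 9.52, 10.25 and 10.89 on untreated MEKK1+/+ arrays and 10.54, 10.09, 10.81 and 10.79 when treated, and these groups overlapped. The MEKK1-/- arrays read 9.66, 10.10, 9.79 and 9.77 untreated and 10.38, 10.30, 10.68 and 10.41 when treated, and these did not overlap. The log2 differences were 0.34 (95% confidence interval -0.14 to 0.81) and 0.61 (0.13 to 1.09), with limma adjusted p values of 0.533 and 0.158.

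RELB, the partner of p52, read 8.24, 7.66, 8.82 and 8.96 on untreated and 8.58, 9.29, 8.61 and 8.95 on treated MEKK1+/+ arrays. On MEKK1-/- arrays it read 8.23, 8.77, 7.61 and 7.74 untreated and 8.86, 9.15, 8.74 and 9.07 when treated. The groups overlapped in both genotypes, in MEKK1-/- cells only through untreated replicate 2. The log2 differences were 0.44 (SE 0.28, limma adjusted p = 0.511) and 0.87 (SE 0.28, limma adjusted p = 0.105).

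RELA, which carries a transactivation domain and is regulated mainly through its localization, varied least among the 7 genes above background on every array. It lay between 11.75 and 12.20 on all 16 arrays, with log2 differences of -0.11 (95% confidence interval -0.34 to 0.12) in MEKK1+/+ and 0.04 (-0.19 to 0.27) in MEKK1-/- cells. These intervals leave out a change of the size seen for NFKB2 in either genotype. REL, a subunit best known from lymphocytes, lay between 6.80 and 7.22, at background on every array, and no level could be given for it.

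Among the inhibitors, NFKBIA encodes IkBa, the classical cytoplasmic inhibitor that NF-kB resynthesizes to end its own activation. It read 10.56, 9.00, 11.05 and 11.63 on untreated MEKK1+/+ arrays and 11.84, 10.86, 11.37 and 12.50 when treated, and the groups overlapped. In MEKK1-/- cells it read 9.56, 10.72, 9.02 and 8.83 untreated and 11.19, 11.64, 11.31 and 11.56 when treated, and every treated array was above every untreated one. The log2 difference was 1.08 (SE 0.50, limma adjusted p = 0.293) in MEKK1+/+ and 1.89 (SE 0.50, limma adjusted p = 0.0442) in MEKK1-/- cells.

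NFKBIZ encodes IkBz, a nuclear protein that works with p50 on secondary targets such as IL6. It read 11.52, 9.50, 10.52 and 11.71 on untreated MEKK1+/+ arrays and 12.32, 11.72, 12.64 and 11.83 when treated. The MEKK1-/- arrays read 8.91, 10.90, 9.39 and 9.56 untreated and 11.55, 11.63, 12.09 and 11.58 when treated. The groups did not overlap in either genotype. The log2 difference was 1.32 (SE 0.45, limma adjusted p = 0.120) in MEKK1+/+ and 2.02 (SE 0.45, limma adjusted p = 0.0173) in MEKK1-/- cells, and the 2-sided exact permutation p was 0.0286 in both.

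NFKBIE encodes IkBe, a further cytoplasmic inhibitor. It read 7.79, 7.20, 8.18 and 7.77 on untreated and 7.82, 7.92, 7.97 and 8.07 on treated MEKK1+/+ arrays. On MEKK1-/- arrays it read 7.26, 7.89, 7.28 and 7.22 untreated and 7.82, 8.21, 7.82 and 7.90 when treated. Of the untreated MEKK1-/- arrays only replicate 2 was above background, while all 4 of the treated arrays were, so the difference in MEKK1-/- cells was taken largely against background signal and no fold is given. The log2 differences were 0.21 (SE 0.18, limma adjusted p = 0.663) and 0.52 (SE 0.18, limma adjusted p = 0.127).

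TNFAIP3 removes activating ubiquitin chains upstream of the IkB kinases. It read 9.72, 7.58, 9.13 and 10.22 on untreated MEKK1+/+ arrays and 9.62, 9.17, 9.99 and 10.48 when treated. In MEKK1-/- cells it read 7.98, 9.28, 7.93 and 8.03 untreated and 9.25, 8.80, 9.50 and 9.20 when treated. Untreated MEKK1-/- replicate 2 lay among the treated arrays of its genotype, and the other 3 untreated arrays lay below all of them. The log2 differences were 0.65 (95% confidence interval -0.33 to 1.64) and 0.89 (-0.10 to 1.87), with limma adjusted p values of 0.565 and 0.381. BIRC3 encodes cIAP2, a ubiquitin ligase of the TNF receptor complex. It was at background on every untreated array and above it on 2 MEKK1+/+ arrays (7.52 and 7.49) and 1 MEKK1-/- array (7.36) after treatment, so no fold is given (limma adjusted p = 0.0799 and 0.226).

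Counted by separation of the groups, 2 of the 10 genes (NFKB2 and NFKBIZ) did not overlap between untreated and treated MEKK1+/+ arrays, against 9.7% of all genes. In MEKK1-/- cells 4 of 10 did not overlap (NFKB1, NFKB2, NFKBIA and NFKBIZ), against 10.4% of all genes. At an unadjusted p under 0.05 the counts were 4 and 7 of 10, against 16.8% and 16.2% of all genes. Macrophage markers had median differences of -0.04 and -0.03 between treated and untreated arrays, with 0 of 20 called by limma in either genotype (0 of 20 also at an unadjusted p under 0.05).

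**Figure D3:**
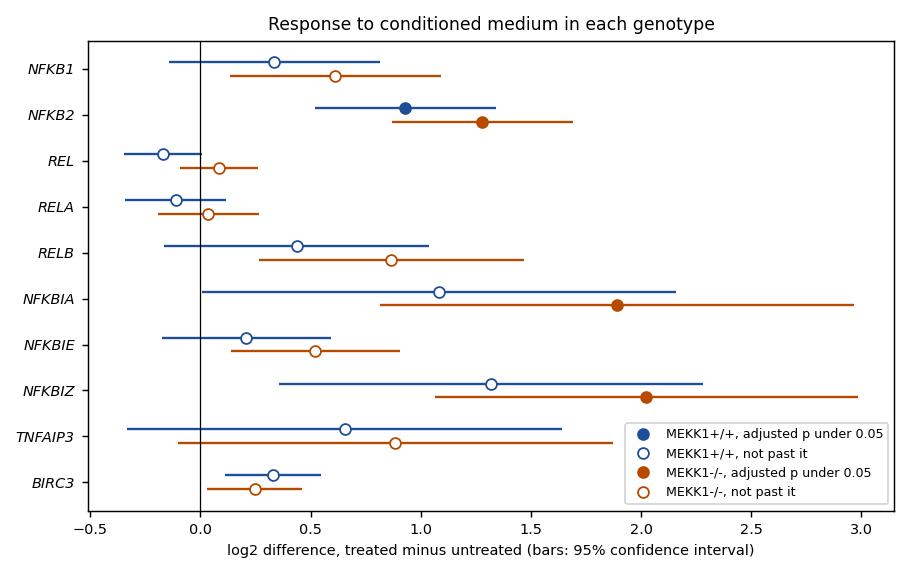
Log2 difference between treated and untreated arrays for each gene in MEKK1+/+ (blue) and MEKK1-/- cells (orange), with 95% confidence intervals from limma. Filled points passed an adjusted p of 0.05 over all genes. NFKB2 passed in both genotypes and NFKBIA and NFKBIZ in MEKK1-/- cells, while the intervals of the 2 genotypes overlap for every gene.

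The calls of NFKBIA and NFKBIZ in MEKK1-/- cells depended on single arrays, while that of NFKB2 did not. The deviations of same-numbered untreated and treated arrays correlated at 0.219 to 0.505 in this genotype, but whether the numbers pair the arrays was not settled. With the replicate number as a block within genotype 5 of the 10 genes passed (NFKB1, NFKB2, NFKBIA, NFKBIE and NFKBIZ), against 7.93% of all genes. Leaving out untreated replicate 1, 3 or 4 or treated replicate 3 left only NFKB2 past the threshold. Leaving out untreated replicate 2 gave 5 (NFKB2, RELB, NFKBIA, NFKBIE and NFKBIZ), against 793 of all 18132 genes. In these 5 genes that array was the highest of its group. NFKBIA was called in 9 of 20 alternatives and NFKBIZ in 14 of 20. NFKB2 was called in 20 of 20 in MEKK1-/- cells and in 18 of 20 in MEKK1+/+ cells. Without the 4 arrays numbered 2, 7 of the 10 genes passed in MEKK1-/- cells (NFKB1, NFKB2, RELB, NFKBIA, NFKBIE, NFKBIZ and TNFAIP3), against 3.61% of all genes, NFKBIE against untreated arrays that were all at background. In MEKK1+/+ cells 0 of 10 then passed by limma, against 2.53% of all genes. There 4 of 10 had an unadjusted p under 0.05, against 14.3% of all genes. These counts cannot be read as independent of the choice of arrays. In the 7 genes the untreated array left out was the highest of its group in MEKK1-/- cells and the lowest in MEKK1+/+ cells.

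The second question was whether the genes differed between genotypes. In untreated cells the arrays labelled MEKK1-/- were lower on average in 9 of the 10 genes, with a median of -0.33 beside 0.008 over all genes, but no gene passed the test. The largest differences were those of NFKBIZ (-1.12, 95% confidence interval -2.08 to -0.16), NFKBIA (-1.03, -2.10 to 0.05) and TNFAIP3 (-0.86, -1.84 to 0.13), with limma adjusted p values of 0.512, 0.546 and 0.577. In limma 0 of 10 genes passed, against 0% of all genes, and 2 of 10 (REL and NFKBIZ) had an unadjusted p under 0.05, against 9.27% of all genes. For 0 of 10 genes were the genotypes' arrays separate, against 4.61% of all genes. For the 7 genes above background on every array, untreated MEKK1+/+ replicate 2 or untreated MEKK1-/- replicate 2 lay within the range of the other genotype.

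Without the 4 arrays numbered 2, all 10 genes were lower on average in untreated MEKK1-/- cells and 5 of 10 fell past the threshold, against 2.11% of all genes. NFKBIZ then differed by -1.96 on the log2 scale (3.89-fold), NFKBIA by -1.94 (3.84-fold), TNFAIP3 by -1.71 (3.27-fold) and NFKB1 by -0.71 (1.64-fold). NFKBIE, at background on the remaining untreated MEKK1-/- arrays, also passed. Their limma adjusted p values ran from 0.00513 to 0.0453. No other alternative called any of these 5 between untreated genotypes, and over all alternatives their adjusted p values ran from 0.00513 to 0.997. These 5 calls cannot be read as independent of the choice of arrays, because the untreated arrays left out were those that lay farthest to the other side in the same genes. Summed macrophage markers on the remaining untreated arrays were 15.95 to 16.39 in MEKK1+/+ and 13.78 to 15.10 in MEKK1-/- cells.

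**Figure D4:**
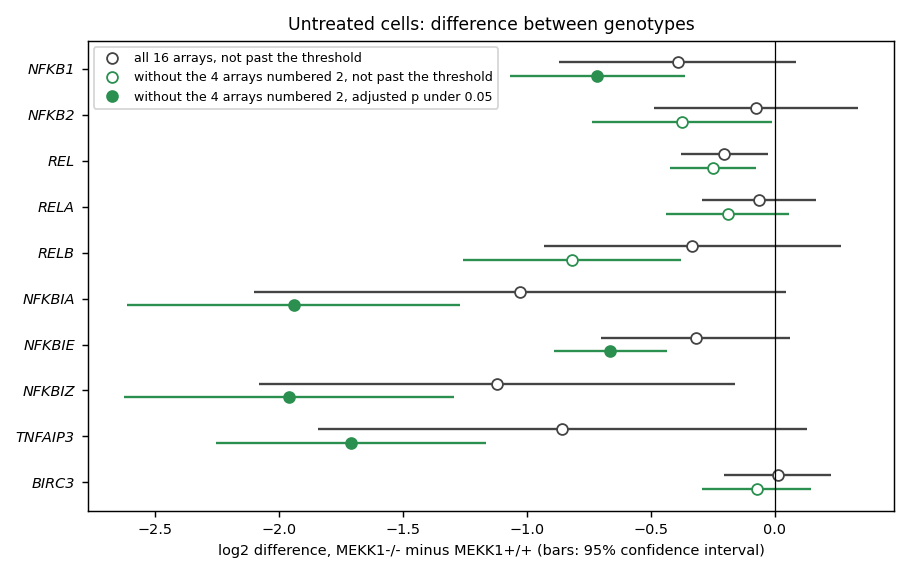
Log2 difference between untreated MEKK1-/- and MEKK1+/+ arrays for each gene, with 95% confidence intervals from limma, on all 16 arrays (gray) and without the 4 arrays numbered 2 (green). Filled points passed an adjusted p of 0.05 over all genes. With all arrays none passed, and without the arrays numbered 2 the points for NFKB1, NFKBIA, NFKBIE, NFKBIZ and TNFAIP3 did.

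**Figure D5:**
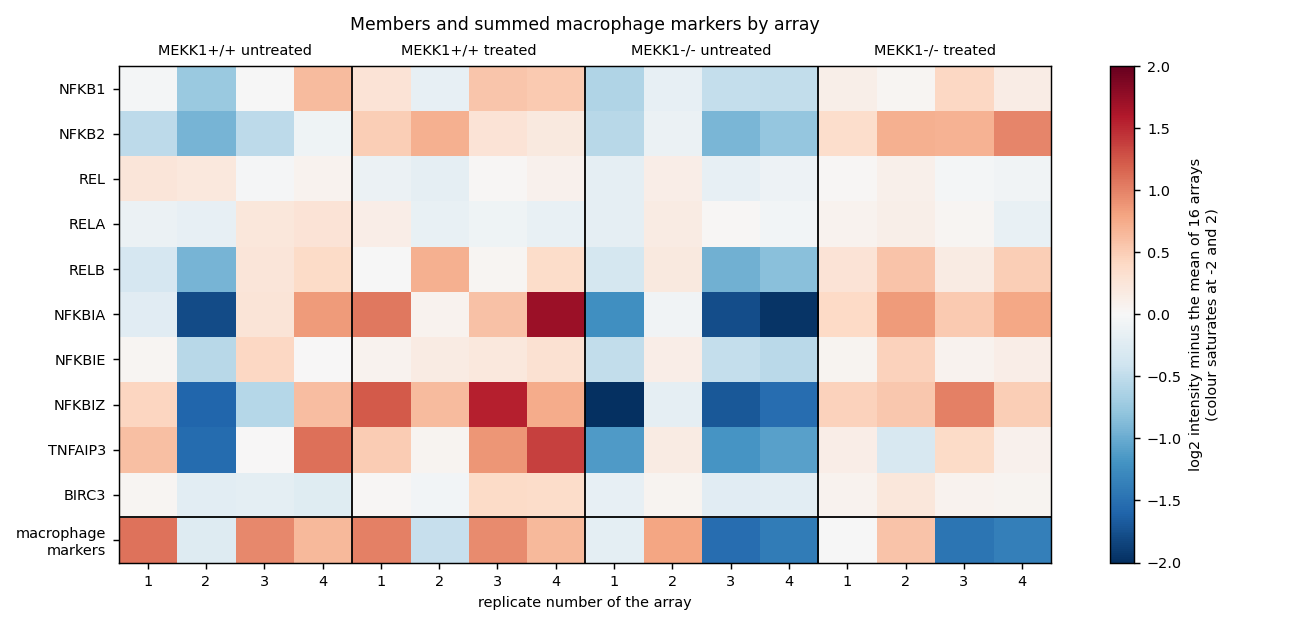
Each cell is the log2 intensity of a gene on an array minus the gene's mean over the 16 arrays, with the summed macrophage markers treated the same way in the bottom row and groups divided by black lines. From NFKB1 to TNFAIP3 other than REL, untreated MEKK1+/+ replicate 2 is the lowest and untreated MEKK1-/- replicate 2 the highest of its own group. The macrophage row moves with them on the untreated arrays. Against the mean over the 16 arrays, untreated MEKK1-/- replicate 2 is below it in NFKB1, NFKB2, NFKBIA and NFKBIZ. It is above that mean in RELA, RELB, NFKBIE and TNFAIP3.

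In treated cells the median difference between genotypes over the 10 genes was -0.04, 6 were lower and 4 higher in MEKK1-/- cells, 0 of 10 passed in limma, against 0.00552% of all genes, and 0 of 10 had an unadjusted p under 0.05, against 8.09%. TNFAIP3 had the largest difference (-0.63, 95% confidence interval -1.61 to 0.36, limma adjusted p = 0.731). NFKBIA differed by -0.22 (-1.29 to 0.86) and NFKB2 by 0.27 (-0.14 to 0.68). For 0 of 10 genes were the genotypes' arrays separate, against 4.17% of all genes. Without the 4 arrays numbered 2 the count was also 0 of 10, against 0.662% of all genes. Then 1 of 10 had an unadjusted p under 0.05, against 12.8% of all genes.

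The interaction of genotype with treatment, the log2 response in MEKK1-/- minus that in MEKK1+/+ cells, was above 0 for 9 of the 10 genes, but limma called 0 of 10, against 0% of all genes. On all arrays only REL, at background throughout, had an unadjusted p under 0.05, against 2.61% of all genes. The interaction was 0.81 for NFKBIA (95% confidence interval -0.71 to 2.33), 0.70 for NFKBIZ (-0.65 to 2.06) and 0.35 for NFKB2 (-0.23 to 0.93), and the limma adjusted p was 0.9999 for all 10. Without the 4 arrays numbered 2 the interaction moved to 1.39 for NFKBIA (0.44 to 2.34), 1.44 for NFKBIZ (0.50 to 2.38), 0.99 for RELB (0.37 to 1.61), 1.00 for TNFAIP3 (0.23 to 1.77) and 0.73 for NFKB2 (0.22 to 1.25). Then 0 of 10 passed in limma, against 0.011% of all genes, and 6 of 10 had an unadjusted p under 0.05, against 3.63%, namely these 5 and NFKBIE, which was at background on the remaining untreated MEKK1-/- arrays. In these 6 genes the untreated arrays left out lay at the ends of their groups, and leaving them out raises the interaction. The count of 6 therefore cannot be read as independent of the choice of arrays. The limma adjusted p of these 6 genes was 0.9996. A response past the threshold in 1 genotype was therefore not shown to differ from that in the other.

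In each member above background on every array, and in NFKBIE, the spread between replicates was smaller on treated than on untreated arrays in both genotypes. The SD of NFKBIA was 1.13 (n = 4) on untreated and 0.69 (n = 4) on treated MEKK1+/+ arrays, and 0.85 and 0.21 on MEKK1-/- arrays. That of NFKBIZ was 1.02 and 0.43 in MEKK1+/+ cells and 0.85 and 0.25 in MEKK1-/- cells. The difference in spread was not tested.

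The steps that lead to NF-kB were examined in a list of 30 receptors, adaptors and kinases, of which 29 were measured. In each genotype 2 of the 29 rose and 2 fell with treatment, or 4 called, against 5.01% of all genes in MEKK1+/+ and 4.69% in MEKK1-/- cells, and the medians of the list were -0.04 and -0.05. CD40, a receptor that signals to both branches of the pathway, rose from 7.85 ± 0.61 (SD, n = 4) to 9.09 ± 0.25 in MEKK1+/+ cells, a log2 difference of 1.24 (limma adjusted p = 0.00537). In MEKK1-/- cells CD40 rose from 7.54 ± 0.11 to 9.11 ± 0.22, by 1.58 (limma adjusted p = 0.00107).

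IRAK2, a kinase of the IL-1 and Toll-like receptor complexes, moved the other way. It fell from 10.39 ± 0.11 (SD, n = 4) to 9.19 ± 0.32 in MEKK1+/+ and from 10.38 ± 0.17 to 9.29 ± 0.26 in MEKK1-/- cells, 2.29-fold and 2.13-fold lower (limma adjusted p = 0.000434 and 0.000858). IKBKE, an IkB kinase homolog, rose by 0.51 in MEKK1+/+ and 0.66 in MEKK1-/- cells (limma adjusted p = 0.0242 and 0.00551). The tumor necrosis factor receptor gene TNFRSF1A fell by 0.61 in MEKK1+/+ cells (limma adjusted p = 0.0114) and differed by -0.24 in MEKK1-/- cells (0.405). LTBR, the lymphotoxin receptor, fell by 0.43 in MEKK1-/- cells (limma adjusted p = 0.0247) and differed by -0.33 in MEKK1+/+ cells (0.0811). The canonical kinase genes CHUK, IKBKB and IKBKG and the kinase gene MAP3K14 of the non-canonical branch were not called in either genotype, with differences between -0.32 and 0.01.

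A second list held 19 other IkB proteins and negative regulators, 17 of them measured. None passed in MEKK1+/+ cells in limma, where 6 of 17 had an unadjusted p under 0.05, against 16.8% of all genes, and 3 of 17 rose in MEKK1-/- cells, against 2.18% of all genes called higher. The medians were 0.15 and 0.12. ZC3H12A, the ribonuclease regnase-1 that degrades inflammatory transcripts, rose 3.91-fold in MEKK1-/- cells (log2 difference 1.97, SE 0.40, limma adjusted p = 0.0101) and differed by 1.13 in MEKK1+/+ cells (limma adjusted p = 0.134). TNIP1, an A20-binding protein, rose by 1.26 in MEKK1-/- cells and differed by 1.08 in MEKK1+/+ cells. BCL3, a nuclear IkB protein that binds p50 and p52, rose by 0.88 in MEKK1-/- cells and differed by 0.66 in MEKK1+/+ cells. The BCL3 and TNIP1 calls were lost when any of several single arrays was left out or arrays were scaled to the same median.

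Of 32 NF-kB target genes listed, 29 were measured. In MEKK1+/+ cells 6 of 29 rose and in MEKK1-/- cells 12 of 29 rose, against 2.27% and 2.18% of all genes called higher, and 0 fell in either. The medians of the list were 1.00 and 1.44. IER3, an immediate early survival gene, rose 2.07-fold in MEKK1+/+ and 2.52-fold in MEKK1-/- cells. SOD2, the mitochondrial superoxide dismutase, rose by 1.44 (SE 0.30) on the log2 scale in MEKK1-/- cells, where untreated arrays lay between 12.41 and 13.64 and treated arrays between 14.07 and 14.37. PTX3, a soluble pattern recognition protein, rose by 1.45 (SE 0.38) and the collagenase gene MMP13 by 1.45 (SE 0.36) in the same cells. In MEKK1+/+ cells SOD2 differed by 0.62, PTX3 by 1.00 and MMP13 by 1.00 (limma adjusted p = 0.303, 0.175 and 0.146). ICAM1, CCL5, MMP9 and CSF2 were also called in MEKK1+/+ cells, with log2 differences of 2.67, 2.62, 2.57 and 2.48. Their limma adjusted p values ran from 0.000434 to 0.0309. CSF2 was above background on 1 of its 4 untreated MEKK1+/+ arrays. The calls of IER3 and IKBKE in MEKK1+/+ cells and of PTX3 and MMP13 in MEKK1-/- cells were lost when any of several single arrays was left out. SELE was called in both genotypes but was at background on every array. None of the genes of these 3 lists passed between genotypes or in the interaction in limma, although the target genes had a median of -0.72 in untreated cells with 25 of 29 lower in MEKK1-/- cells. Of these 29, 6 had an unadjusted p under 0.05 there, against 9.27% of all genes.

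The genes whose values followed each member most closely over the 16 arrays were sought among the 6923 genes above background on every array, by Pearson's r. These correlations share the arrays and the treatment, and are given as a description. NFKB2 was nearest to the adhesion molecule gene ICAM1 (r = 0.945), NFKBIZ to the cytokine gene IL6 (r = 0.982) and NFKBIA to MICALL2 (r = 0.976) and the chemokine gene CXCL16 (r = 0.968). RELB was also nearest to CXCL16 (r = 0.909). NFKB1 and TNFAIP3 were nearest to FAS, a death receptor gene, and to GLRX, a glutaredoxin (r = 0.937 and 0.952), and were among each other's 3 nearest genes (r = 0.931). RELA had no gene closer than LRP10 (r = 0.723). With the group means removed, NFKB1 and TNFAIP3 still varied together (r = 0.915), as did NFKB2 and RELB (r = 0.809), and the r of single members with the mean macrophage marker lay between 0.28 for NFKB2 and 0.69 for NFKBIE.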

How the data were processed

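Expression in 16 samples was measured on 1-color Illumina Mouse 8 arrays. The deposited table holds 1 linear intensity per gene symbol and array, normalized by a core facility before the authors received it. How it was normalized, how background was treated and how probes were combined are not given in the sources used here. Array medians ran from 114 to 170.1. Precision is limited by the number of arrays.

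The intensities were taken to log2 and quantile normalized. The 4 groups were fitted together with limma 3.58.1 in R 4.3.3 (lmFit and eBayes, 12 residual degrees of freedom), with Benjamini-Hochberg adjustment over 18132 genes and a threshold of 0.05. The 5 comparisons were treated (conditioned medium) against untreated in each genotype, MEKK1-/- against MEKK1+/+ in each condition, and the interaction. For the members, 2-sided exact permutation tests of 4 arrays against 4 were added. The steps were tested on simulated data. Arrays of the same group correlated at 0.979 to 0.996 and 0 columns were identical.

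Replicate numbers were checked as pairs by correlating the deviations of same-numbered arrays from their group means. Between untreated and treated MEKK1-/- arrays r was 0.505, 0.403, 0.219 and 0.251, all above the cutoff of 0.1. For replicates 3 and 4 the highest r with a differently numbered array was larger, at 0.280 and 0.541, so passing the cutoff does not show pairing by number. Any such pairing comes from the data and not from the labels. MEKK1+/+ arrays did not pass this check (-0.04, 0.485, 0.120 and 0.576). Their summed macrophage markers nonetheless lay close on same-numbered untreated and treated arrays (16.39 and 16.30, 15.03 and 14.84, 16.25 and 16.24, 15.95 and 15.94). Whether the numbers pair the arrays was therefore not settled in either genotype. The main tests and the permutation tests treat all arrays as unpaired, and the replicate block within genotype is given as an alternative.

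The 10 genes, the pathway lists and the marker lists were chosen with earlier results of these data known. Genes were named from the 10 members, from list genes past the threshold with a few named kinases that were not, and as the 3 nearest genes of each member above background. The list genes described in full were picked after their values were seen. The alternatives tried were no further normalization, equal array medians, z-scores tested with limma or with the z-test that the study names, a filter on dim genes, a pseudocount of 16, only the groups compared, trended and robust variances, array weights, replicate blocks, each array left out, and, chosen after seeing the data, the 4 arrays numbered 2 left out.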

Additional observations from a re-analysis of the deposited data

Results flagged for a closer look

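Within groups of 4 arrays, 5 of 40 gene and group combinations had a single array far from the other 3, judged by the gap to its nearest neighbor as a share of the group's range. Chance gives about 1 in 20 such groups. In untreated MEKK1-/- cells replicate 2 was highest for TNFAIP3 (share 0.927, at 9.28 against 7.93 to 8.03) and for NFKBIE (share 0.909, at 7.89 against 7.22 to 7.28). Among treated arrays, MEKK1-/- replicate 3 was highest for NFKBIZ (share 0.854, at 12.09 against 11.55 to 11.63). BIRC3 gave the remaining pair, both near background, with untreated MEKK1+/+ replicate 1 (share 0.851, at 7.16) and treated MEKK1-/- replicate 2 (share 0.887, at 7.36).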

How the results depend on the processing

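NFKB2 kept its direction under every alternative in both responses. Members called in MEKK1+/+ and MEKK1-/- responses numbered 0 and 1 with values as deposited, 1 and 1 with equal medians, 1 and 7 by the study's z-test, 3 and 4 with array weights, 2 and 5 with the replicate block within genotype, and 0 and 7 without the 4 arrays numbered 2, which also gave 5 between untreated genotypes. With 1 array left out they ran from 1 to 2 and from 1 to 5, and stayed at 0 between genotypes and in the interaction. Over all genes, the MEKK1+/+ response had 1916 calls by the z-test, 588 with only the groups compared, 1481 with the replicate block, 458 without the arrays numbered 2 and 506 to 987 with 1 array left out. The MEKK1-/- response had 45 with values as deposited, 463 with equal medians, 2047 by the z-test, 1355 with array weights, 1438 with the replicate block and 477 to 1027 with 1 array left out. Untreated genotypes had 817 by the z-test, 1 with array weights, 383 without the arrays numbered 2 and 0 to 1 with 1 array left out. Treated genotypes had 7 with equal medians, 460 by the z-test, 0 with only the groups compared, 120 without the arrays numbered 2 and 0 to 2 with 1 array left out. The interaction had 20 by the z-test, 2 without the arrays numbered 2 and 0 to 1 with 1 array left out. The causes were not tested. Values as deposited move the median of all genes by -0.28 in the MEKK1+/+ response and by 0.28 between treated genotypes. With them NFKB1 (-0.091) and NFKBIE (-0.11) turned negative in the MEKK1+/+ response, RELA (-0.039) in the MEKK1-/- response, and NFKBIE (0.20) and BIRC3 (0.20) between treated genotypes and BIRC3 (0.16) in the interaction turned positive. With equal medians RELA turned to -0.041 in the MEKK1-/- response and RELA (-0.17) and RELB (-0.063) between treated genotypes, and array weights turned RELA to -0.013 in the MEKK1-/- response. Without the arrays numbered 2, BIRC3 turned to -0.072 in untreated cells and REL to -0.030 in treated cells. With 1 array left out the differences spanned 0 for BIRC3 (-0.052 to 0.073), NFKB2 (-0.23 to 0.067) and RELA (-0.14 to 0.0088) between untreated genotypes, NFKBIE (-0.099 to 0.035) and NFKBIA (-0.48 to 0.065) between treated genotypes, RELA (-0.019 to 0.095) in the MEKK1-/- response and TNFAIP3 (-0.12 to 0.75) in the interaction. The block over all 4 groups left 2 members called in the MEKK1-/- response. The alternative for symbols with several rows was not run, since 0 symbols had them. Signal near background limits REL, BIRC3 and NFKBIE.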
